A study of Mus musculus with 30 samples.

Results

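The receptor-activated SMADs and their common partner Smad4 are 6 genes: Smad2 and Smad3, which carry activin and TGF-β signals, Smad1, Smad5 and Smad9, which carry BMP signals, and Smad4. They were taken by symbol from the deposited table of read counts, where all 6 were present among 39017 genes, and all 6 passed the low-count filter that left 15627 genes for testing. The counts came from poly(A) RNA of 5 lines of βTC3, an insulin-producing tumour cell line of the mouse pancreatic islet. Each line held a doxycycline-inducible construct: a control, the activin type I receptor ALK7 (gene Acvr1c), its dominant-negative form (ALK7-DN), 1 ALK7 hairpin (sh2) or 2 ALK7 hairpins (sh1/2). Every culture, controls included, received doxycycline (DOX) at 1 µg/ml for 24 hours, and activin B at 50 ng/ml, where given, was also present for 24 hours. There were 3 libraries in each of the 10 groups. The control, ALK7 and ALK7-DN lines were built on one plasmid backbone (PB-33) and both hairpin lines on another (PB-31), and no hairpin-free PB-31 line is in the data, so that hairpin and backbone cannot be told apart. The labels placed the sh2 libraries with DOX alone and the ALK7-DN libraries with activin B in batch 2 and the others in batch 1, so that batch and treatment cannot be told apart within these lines.

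SMAD proteins relay signals of the TGF-β family from the cell surface to the genome. An activated type I receptor phosphorylates the receptor-activated SMADs, which then join SMAD4, enter the nucleus and bind regulatory DNA with other factors. The receptors of activin and TGF-β, ALK7 among them, act on SMAD2 and SMAD3, and BMP receptors on SMAD1, SMAD5 and SMAD9. SMAD3 binds DNA directly, whereas the main form of SMAD2 does so poorly. In islet beta cells activins act through these proteins on insulin secretion and on gene expression.

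Library totals lay between 18904884 and 34740789 counts. Beta cell markers summed to 14052 to 25209 CPM (library-scaled counts) in each library, with all 10 detected. All acinar and endothelial markers averaged under 1 CPM, as did 5 of 6 stromal and 3 of 4 immune ones. Of the duct markers 1 of 5 averaged under 1 CPM, their sum ran from 14.6 to 69.0 CPM and Krt7 reached 64.4 CPM, and the markers of other islet hormone cells summed to 8.69 to 173 CPM, with Gcg at 7.52 to 169 CPM. Their part in the SMAD levels was not tested. The targeted gene, Acvr1c, averaged 165 CPM in control cells under DOX alone, 68.5 in sh2 and 55.3 in sh1/2, and neither expression construct was visible in its counts (154 in ALK7 and 161 in ALK7-DN). 3 libraries stood apart by GC content: in control with activin B replicate 2 and in sh1/2 DOX replicates 1 and 3, genes rich in G and C were low, with correlations of -0.585, -0.509 and -0.551 across genes between GC content and the deviation from the mean of all libraries. The other 27 libraries lay between -0.316 and 0.429. Smad5 and Smad2 are among the GC-poor genes, at the 25.3 and 29.8 percentiles of the genes tested. Smad3 is the richest of the 6 in G and C, at the 69.8 percentile. Results below are given without these 3 libraries where that changes a call. Untreated sh1/2 then keeps replicate 2 alone, so that such values for this group rest on a single library. By chi-square per degree of freedom over read counts, replicate 2 differed from replicates 1 and 3 by 57.3 and 51.4. Replicates 1 and 3 differed from each other by 12.8. The labels make the replicates wells of one line, so that p-values reflect only how these samples vary, and that variation may be technical.

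The 6 genes are protein-coding and lie, in mm10 with GENCODE M21 annotation, at chr9:63646767-63757994 on the minus strand (Smad3), chr18:76241580-76310963 on the plus strand (Smad2), chr8:79338395-79399518 on the minus strand (Smad1), chr13:56703010-56742377 on the plus strand (Smad5), chr3:54755582-54801257 on the plus strand (Smad9) and chr18:73639009-73703780 on the minus strand (Smad4). Despite their shared domains, few of their reads could be exchanged. Of all 50-base stretches of their transcripts, 0% in Smad1, Smad2, Smad3 and Smad4, 0.169% in Smad9 and 0.679% in Smad5 also occurred in another annotated gene.

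The first question was which of the 6 transcripts the cells hold most of. Per kilobase of exon, control cells under DOX alone held most Smad4 (28.6 ± 0.458 CPM per kb, SD, n = 3), followed by Smad5 (14.1 ± 0.143), Smad2 (12.2 ± 0.244), Smad9 (7.80 ± 0.393), Smad1 (5.55 ± 0.0913) and Smad3 (2.48 ± 0.150). No pair of neighbours in this order overlapped between libraries. Smad4 was the highest, Smad5 the next, Smad2 the third and Smad3 the lowest in all 10 groups. Only Smad9 and Smad1 exchanged places: Smad1 was the higher of them with activin B in ALK7 and sh2 and in both groups of sh1/2, and their libraries overlapped in ALK7 with and without activin B, in sh2 under DOX alone and in sh1/2 under DOX alone. Over all 30 libraries Smad3 varied most, 2.97-fold between its lowest and highest library on the CPM scale. Smad9 varied 2.25-fold, Smad2 1.62-fold, Smad5 1.55-fold, Smad1 1.43-fold and Smad4 1.19-fold. Smad3 was also counted with the fewest reads, 128 to 528 per library.

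**Figure D1:**
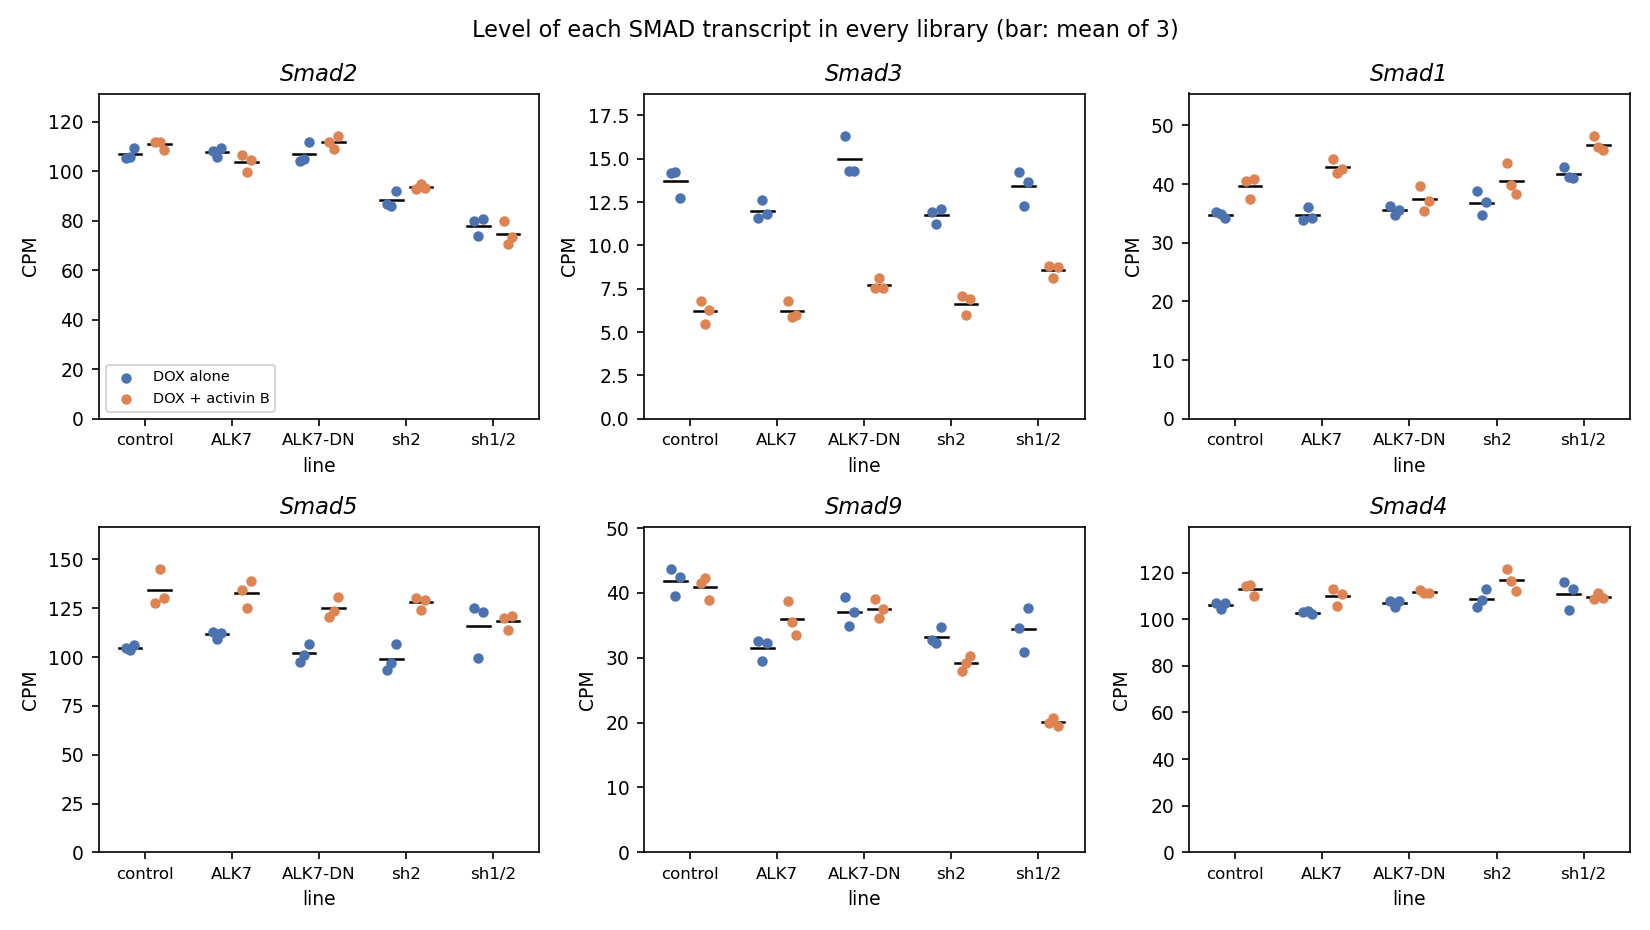
Level of each gene in CPM (vertical axis, from 0) in every library, by line (horizontal axis). Blue points are libraries with DOX alone, orange points libraries with DOX and activin B, and bars the mean of 3. All orange points of Smad3 lie under the blue points of the same line, and those of Smad9 lie far under them in sh1/2, at 19.4 to 20.7 CPM.

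The next question was how activin B changes each gene. Smad3, the DNA-binding SMAD of the activin branch, fell in all 5 lines. In control cells its libraries stood at 14.2, 14.2 and 12.8 CPM under DOX alone and at 6.80, 5.48 and 6.30 CPM with activin B. In ALK7 cells they stood at 11.6, 12.6 and 11.8 CPM without and 6.82, 5.87 and 5.99 CPM with activin B, and in ALK7-DN cells at 16.3, 14.3 and 14.3 CPM without and 7.52, 8.09 and 7.55 CPM with it. In each of these lines every activin B library lay below every DOX library. In sh2 the values were 11.9, 11.2 and 12.1 CPM under DOX alone and 7.06, 5.97 and 6.92 CPM with activin B. In sh1/2 they were 14.2, 12.3 and 13.7 CPM under DOX alone and 8.84, 8.10 and 8.75 CPM with activin B, again with no overlap in either hairpin line. The log2 fold change was -1.14 ± 0.09 (SE) in control (adjusted p = 2.94e-10, edgeR quasi-likelihood test), -0.95 ± 0.09 in ALK7 (6.35e-09), -0.96 ± 0.09 in ALK7-DN (6.48e-09), -0.82 ± 0.09 in sh2 (1.03e-07) and -0.65 ± 0.09 in sh1/2 (3.95e-06). The ratio of the group means ran from 0.452 in control to 0.639 in sh1/2. The libraries of control, ALK7 and sh1/2 were all of batch 1, so that in these lines the fall was measured within a batch. In bulk RNA, fewer cells that express a gene and less of its RNA per cell cannot be told apart.

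Upstream of Smad3 the 250 bases before its RefSeq start (GRCm38.p6, chr9:63757995-63758244, minus strand) are shown because Smad3 alone of the 6 genes fell in every line. They were searched on both strands for CAGAC, which is the SMAD box core AGAC with a flanking C. The palindromic SMAD binding element GTCTAGAC and the GC-rich element GGCGC were searched as well. These letters occur in 42.2%, 0.167% and 32.0% of the 32851 mouse windows of the same length, and none of the 3 occurs here, in a window with 69.2% G and C. The core AGAC alone was not counted, and it does occur in this window, after a T. GGCGC was the only GC-rich string searched, and others, such as CGGCC, occur in this window.
Smad3: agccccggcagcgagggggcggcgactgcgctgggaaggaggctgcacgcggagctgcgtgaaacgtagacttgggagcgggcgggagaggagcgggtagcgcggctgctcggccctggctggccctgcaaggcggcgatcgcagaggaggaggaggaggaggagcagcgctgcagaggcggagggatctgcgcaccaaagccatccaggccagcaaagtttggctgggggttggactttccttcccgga

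Smad2, the other SMAD of the activin branch, passed the test in none of the 5 responses. Its libraries in control cells stood at 105, 106 and 109 CPM under DOX alone and at 112, 112 and 109 CPM with activin B. The log2 fold change was 0.05 ± 0.05 (SE) in control, -0.06 ± 0.05 in ALK7, 0.06 ± 0.05 in ALK7-DN, 0.08 ± 0.05 in sh2 and -0.06 ± 0.05 in sh1/2, with adjusted p between 0.221 and 0.479. The 95% intervals of these responses reached from -0.16 at the lowest to 0.18 at the highest. Treated and untreated libraries overlapped in 4 lines, and in sh2, where they were of different batches, all 3 activin B libraries lay above the DOX libraries (92.8, 95 and 93.3 against 86.9, 86.2 and 92.1 CPM).

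Smad5, the most abundant BMP-branch SMAD here, rose in 4 lines. In control cells it went from 105, 104 and 106 CPM under DOX alone to 128, 145 and 130.5 CPM with activin B. In ALK7 it went from 113, 109.5 and 113 to 134, 125 and 139 CPM, in ALK7-DN from 97.6, 101 and 107 to 121, 123 and 131 CPM, and in sh2 from 93.3, 97.1 and 107 to 130.5, 124 and 129 CPM. No treated library of these 4 lines lay below an untreated one. The log2 fold change was 0.36 ± 0.07 in control (adjusted p = 0.000372), 0.25 ± 0.07 in ALK7 (0.00747), 0.29 ± 0.07 in ALK7-DN (0.00308) and 0.37 ± 0.07 in sh2 (0.000244). In sh1/2 the libraries stood at 125, 99.7 and 123 CPM under DOX alone and at 119.9, 114 and 121 CPM with activin B, and the difference was 0.03 ± 0.07 (adjusted p = 0.782). The untreated sh1/2 libraries were split: replicates 1 and 3, those low on GC-rich genes, were higher in Smad5 than any other DOX library, and replicate 2 was not. With an offset for GC content the response in sh1/2 was 0.23 (adjusted p = 7.34e-05). Without the 3 libraries named above, with untreated replicate 2 alone, it was 0.25. A batch term gives sh2 the response of sh1/2 by construction, and with it the Smad5 call in sh2 ended (0.03, 0.782). The same term adds the difference between the sh2 and sh1/2 responses to ALK7-DN, where the value became 0.64 (0.000428).

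Smad1, which shares the BMP branch with Smad5, rose in control, ALK7 and sh1/2. Its group mean went from 34.8 ± 0.572 (SD, n = 3) to 39.6 ± 1.89 CPM in control (log2 fold change 0.19 ± 0.06 SE, adjusted p = 0.0159), from 34.7 ± 1.17 to 42.9 ± 1.29 CPM in ALK7 (0.31 ± 0.05, 0.000128) and from 41.7 ± 1.008 to 46.7 ± 1.30 CPM in sh1/2 (0.16 ± 0.05, 0.0226). In these 3 lines the treated libraries lay above the untreated ones. ALK7-DN had 35.6 ± 0.762 and 37.4 ± 2.169 CPM (0.07 ± 0.05, adjusted p = 0.455), and sh2 had 36.8 ± 2.01 and 40.6 ± 2.74 CPM (0.14 ± 0.06, 0.0785), with overlapping libraries in both. The call in control ended with its 2 groups alone in the fit (adjusted p = 0.130), with no filter on low counts (0.0646) and without control DOX replicate 3 (0.0625), activin B replicate 1 (0.0551) or activin B replicate 3 (0.0702). The call in sh1/2 ended with its 2 groups alone in the fit (0.142), with no filter (0.0548), with GC offsets (0.0510), without the 3 libraries named above (0.150) and without sh1/2 DOX replicate 3 (0.0901) or activin B replicate 1 (0.0784), while sh2 passed with a replicate block (0.14, 0.0423), with GC offsets and the block (0.13, 0.0299), with a batch term (0.16, 0.0226), without the 3 libraries (0.15, 0.0407), and without its DOX replicate 1 (0.19, 0.0351) or activin B replicate 3 (0.18, 0.0441).

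Smad9, a BMP-branch SMAD that is itself a known target of BMP signalling, was called in 2 lines, in opposite directions. In sh1/2 it fell from 34.6, 30.9 and 37.7 CPM under DOX alone to 19.99, 20.7 and 19.4 CPM with activin B (log2 fold change -0.78 ± 0.07, adjusted p = 6.72e-09). These treated libraries were the lowest of all 30. In control cells Smad9 stood at 43.6, 39.5 and 42.5 CPM without and at 41.6, 42.4 and 38.8 CPM with activin B, which overlapped (-0.03 ± 0.07, adjusted p = 0.800). In ALK7-DN, with 39.4, 35.0 and 37.0 against 39.1, 36.2 and 37.5 CPM, they overlapped as well (0.02 ± 0.07, adjusted p = 0.922). A batch term gave 0.61 there (0.000824), which by construction includes the difference between the sh2 and sh1/2 responses. In ALK7 the libraries rose from 32.6, 29.5 and 32.3 to 38.7, 35.5 and 33.6 CPM (0.19 ± 0.07, adjusted p = 0.0444). In sh2 they stood at 32.7, 32.2 and 34.7 CPM under DOX alone and, all lower, at 28.01, 29.2 and 30.2 CPM with activin B (-0.19 ± 0.07, adjusted p = 0.0611). The ALK7 call ended with DESeq2 (0.0556), with median-ratio (RLE) size factors (0.0643), with no filter (0.0702), with its 2 groups alone in the fit (0.0766) and without DOX replicate 1 (0.0520), 2 (0.197) or 3 (0.0712) or activin B replicate 1 (0.245) or 2 (0.0764). The sh2 response passed the test with GC offsets (-0.22, adjusted p = 0.0229), also with the replicate block (-0.22, 0.00527), with a batch term (-0.78, 6.72e-09, by construction the response of sh1/2), without the 3 libraries named above (-0.18, 0.0339) and with limma on the deposited log2 table (-0.20, 0.0446).

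The corresponding 250 bases before the RefSeq start of Smad9 (GRCm38.p6, chr3:54755332-54755581, plus strand) are shown for contrast with Smad3. They hold 73.2% G and C and, in capitals, 5 matches to GGCGC on either strand, of which 1 pair overlaps, and neither CAGAC nor GTCTAGAC. The windows of Smad1 and Smad5 hold 3 and 1 matches to GGCGC, and those of Smad2 and Smad4 are not given. AGAC alone and CGGCC, which were not counted, also occur in the Smad9 window. A match is a string of letters and no measured binding.
Smad9: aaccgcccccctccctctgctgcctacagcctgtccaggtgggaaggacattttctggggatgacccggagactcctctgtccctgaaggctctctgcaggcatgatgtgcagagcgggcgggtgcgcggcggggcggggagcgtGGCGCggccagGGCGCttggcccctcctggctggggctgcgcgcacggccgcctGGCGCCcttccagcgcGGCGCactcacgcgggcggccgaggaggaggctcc

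Smad4, the partner that all receptor-activated SMADs share, was the steadiest of the 6 genes. Its group means ran from 103 ± 0.649 CPM (SD, n = 3) in ALK7 under DOX alone to 117 ± 4.63 CPM in sh2 with activin B. The response to activin B was 0.09 ± 0.04 (SE) in control, 0.10 ± 0.04 in ALK7, 0.06 ± 0.04 in ALK7-DN, 0.10 ± 0.04 in sh2 and -0.02 ± 0.04 in sh1/2, and none passed the test (adjusted p from 0.0866 to 0.792). In control, ALK7 and ALK7-DN every treated library lay above every untreated one, though in ALK7-DN they were also of different batches. How often libraries of other genes separate in this way was not counted, so that such separations, here and for the other members, are description only. The response in ALK7 passed with GC offsets (0.13, adjusted p = 0.0130), that in ALK7 and sh2 without the 3 libraries named above (0.09 and 0.11, adjusted p = 0.0392 and 0.0181), and that in sh2 without its DOX replicate 3 (0.14, 0.0315).

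Among the 6 genes, activin B raised 2 and lowered 1 in control, where 20.3% of all genes tested were called. The counts were 3 and 1 in ALK7 (background 25.3%), 1 and 1 in ALK7-DN (16.1%), 1 and 1 in sh2 (19.6%) and 1 and 2 in sh1/2 (36.6%). The sh1/2 background moved with the processing, from 5723 genes here to 1482 with its 2 groups alone and 8228 without DOX replicate 2. The median log2 fold change of the 6 genes was 0.07 in control, 0.14 in ALK7, 0.06 in ALK7-DN, 0.09 in sh2 and -0.04 in sh1/2, beside medians of all genes between -0.01 and 0.00. The 2 genes called in ALK7-DN and the 2 called in sh2 are the same pair, Smad3 and Smad5.

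**Figure D2:**
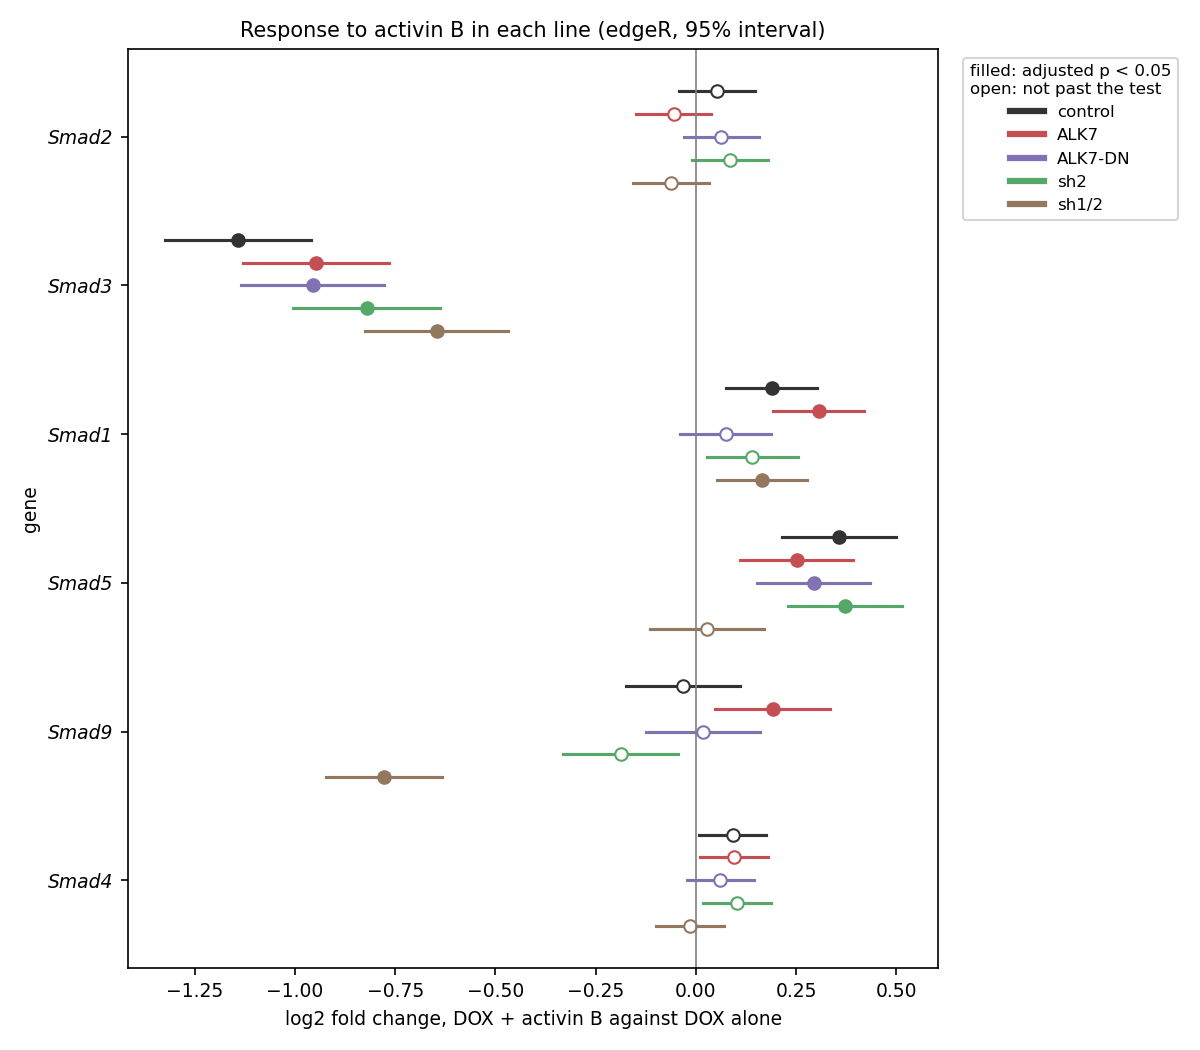
Response to activin B as log2 fold change of DOX with activin B against DOX alone (horizontal axis) for each gene (vertical axis), coloured by line. Points are edgeR estimates and lines their 95% intervals, and filled points passed the test. Smad3 lies left of 0 in all 5 lines (-1.14 to -0.65), Smad5 right of it in 4, and Smad9 far left only in sh1/2 (-0.78).

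Whether a line responded differently from control was tested as an interaction. In sh1/2, 3 of the 6 genes differed from control, 1 upwards and 2 downwards, where 17.7% of all genes were called. That share moved with the processing: of 15627 genes, 2768 were called here, 848 with GC offsets and 46 with only the groups compared. Without sh1/2 DOX replicate 2 the count was 7005. Smad9 fell by 0.75 ± 0.10 more on the log2 scale in sh1/2 than in control (adjusted p = 0.000128), and this call held in all 22 alternatives, with values between -0.82 and -0.57 and adjusted p from 2.67e-09 to 0.0236. The batch term, 1 of the 22, leaves the sh1/2 interactions unchanged by construction, since their groups were all of batch 1. Smad3 fell less in sh1/2 than in control, by a difference of 0.50 ± 0.12 (adjusted p = 0.0199). Smad5 had a lower response, by -0.33 ± 0.10 (adjusted p = 0.0347). The Smad3 call ended with the groups compared alone in the fit (0.50, adjusted p = 0.187) and with GC offsets (0.35, 0.0886). It also ended without control DOX replicate 1 (0.47, 0.0558) or control activin B replicate 2 (0.42, 0.0766). Without the 3 libraries named above, with untreated sh1/2 replicate 2 alone, the Smad3 difference was 0.54, given as a size only and not as a call that held. The Smad5 difference shrank to -0.07 with GC offsets (adjusted p = 0.501). Without the 3 libraries, with untreated sh1/2 replicate 2 alone, it was -0.05. The Smad5 call also ended with the groups compared alone in the fit (0.187), with no filter (0.0554) and without control DOX replicate 1 (0.0811) or 3 (0.0574). It ended too without control activin B replicate 2 (0.129), sh1/2 DOX replicate 1 (0.117) or 3 (0.116), or sh1/2 activin B replicate 2 (0.0755) or 3 (0.0592).

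In the other lines none of the 6 interactions passed edgeR's quasi-likelihood test. For ALK7 against control 0.0256% of all genes were called, for sh2 0.0128%, and for ALK7-DN 0%, a count of 0 genes beside 3 with DESeq2. In ALK7-DN, 342 of 15627 genes had an unadjusted edgeR p under 0.05, a share smaller than 0.05. At an unadjusted p under 0.05 the members were Smad9 in ALK7 (0.22 ± 0.10, 95% interval 0.02 to 0.43) and Smad3 in sh2 (0.32 ± 0.12, interval 0.06 to 0.58), with 0 in ALK7-DN, and DESeq2 called 0 of the 6 in each of these lines. The Smad3 difference in ALK7-DN was 0.19 ± 0.12 (interval -0.07 to 0.44) and in ALK7 0.20 ± 0.12 (-0.06 to 0.45). These intervals do not show that the lines respond alike.

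**Figure D3:**
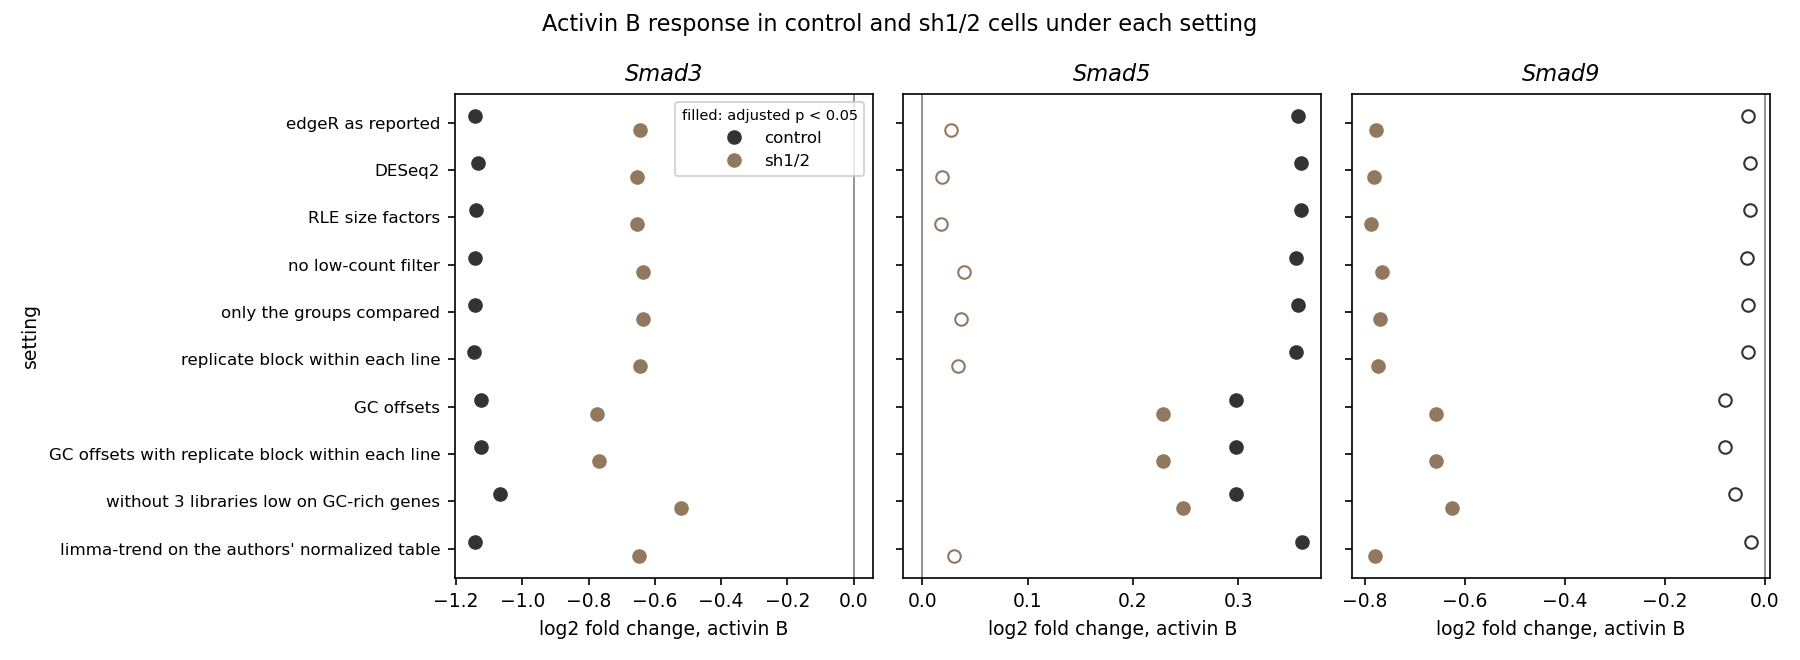
Response to activin B (horizontal axis, log2 fold change) of Smad3, Smad5 and Smad9 in control (black) and sh1/2 (brown) under each setting of the processing (vertical axis). Filled points passed the test. The Smad5 points of sh1/2 move from 0.03 to 0.23 with GC offsets and to 0.25 without 3 libraries, whereas Smad9 in sh1/2 stays at -0.62 or lower in the settings drawn.

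The composition of the SMAD transcripts was then described within each library, on the scale per kilobase of exon and without a test. Smad3 made up 16.9 ± 1.13% (SD, n = 3) of the Smad2 and Smad3 transcripts in control cells under DOX alone and 8.13 ± 0.830% with activin B. The share went from 15.01 ± 0.774% to 8.68 ± 0.468% in ALK7, from 18.2 ± 1.56% to 9.87 ± 0.583% in ALK7-DN, from 17.4 ± 0.394% to 10.1 ± 0.923% in sh2 and from 21.4 ± 0.607% to 15.4 ± 0.489% in sh1/2. The treated sh1/2 libraries, at 14.9 to 15.9%, thus lay in the range of untreated control and ALK7 cells, from 14.5 to 17.6%. This follows from 2 members at once, a Smad2 level that was low and a Smad3 level with activin B that was high in sh1/2. The BMP-branch transcripts together exceeded those of the activin branch 1.88 ± 0.0359-fold in control cells under DOX alone and 2.33 ± 0.0916-fold with activin B. The ratio was 1.83 and 2.43 in ALK7, 1.77 and 2.11 in ALK7-DN, 2.09 and 2.46 in sh2, and 2.54 and 2.70 in sh1/2. Treated sh1/2 libraries, at 2.57 to 2.80, overlapped the untreated ones, at 2.42 to 2.59. The lowest of these, 2.42, was DOX replicate 2, the untreated sh1/2 library not low on GC-rich genes, and all treated libraries lay above it. The sum of all 6 was higher with activin B than with DOX alone in 4 lines, with no overlap between libraries, as in control at 76.3 ± 1.80 against 70.7 ± 0.959 CPM per kb. In sh1/2 it was 66.7 ± 0.766 with and 69.9 ± 4.80 without activin B, within the spread of the untreated libraries. DOX replicate 2 was the lowest of these too, at 64.4 CPM per kb, below the treated libraries at 66.0 to 67.5, so that against this library alone the direction was that of the other lines.

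**Figure D4:**
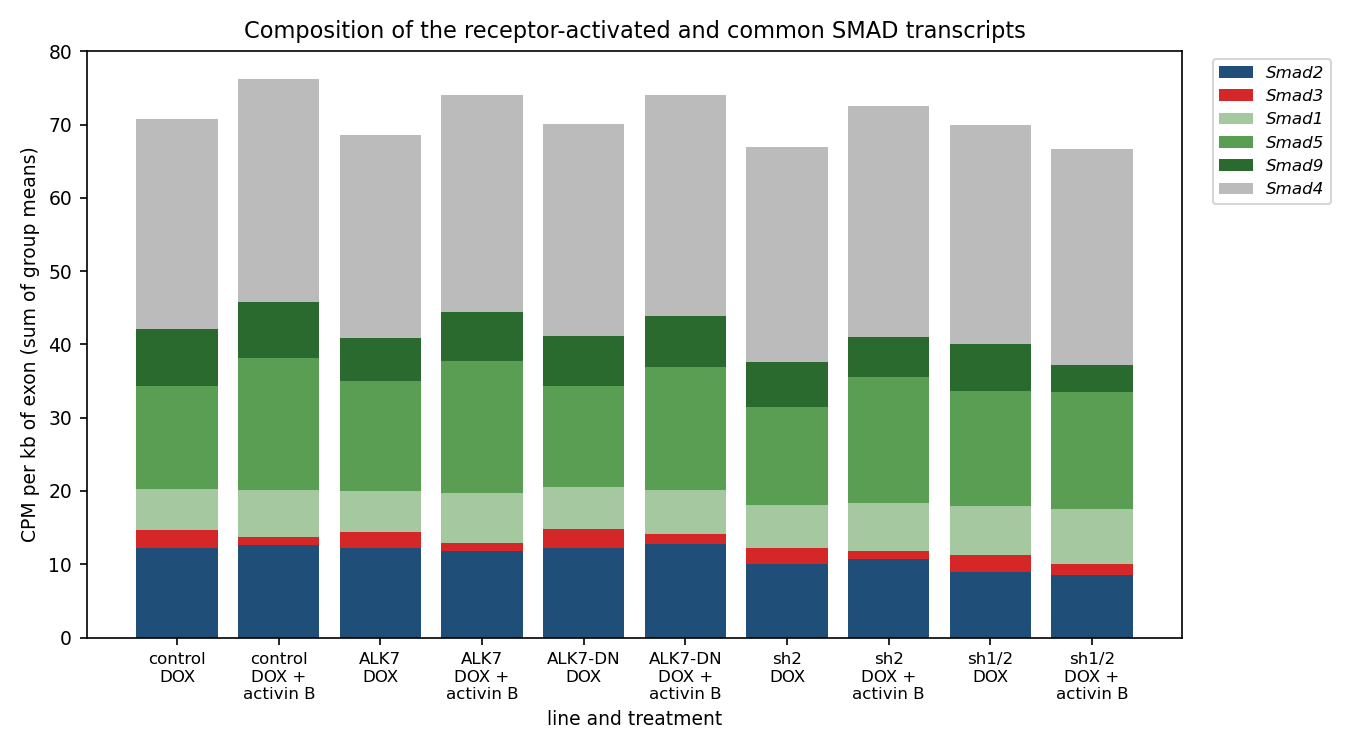
Stacked group means of the 6 transcripts in CPM per kb of exon (vertical axis, from 0) for each line and treatment (horizontal axis). Smad4 fills 39.9% to 44.3% of each bar, and the Smad3 segment is the thinnest in every bar, at 2.48 CPM per kb in control under DOX alone and 1.12 with activin B.

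Lines were next compared with control under DOX alone, which asks whether the construct itself goes with another SMAD level. Smad2 was lower in both hairpin lines. Its libraries stood at 79.8, 73.9 and 80.6 CPM in sh1/2, below the 105 to 109 CPM of control (log2 fold change -0.45 ± 0.05, adjusted p = 4.01e-08), and at 86.9, 86.2 and 92.1 CPM in sh2 (-0.27 ± 0.05, 0.000191). Smad9 was lower in ALK7 (-0.41 ± 0.07, adjusted p = 0.00118), sh2 (-0.34 ± 0.07, 0.00182) and sh1/2 (-0.29 ± 0.07, 0.00223), with group means of 31.5, 33.2 and 34.4 against 41.9 CPM. Smad1 was higher in sh1/2 (0.26 ± 0.06, adjusted p = 0.000637), at 41.0 to 42.8 against 34.1 to 35.3 CPM. Of the 6 genes, 1 was called in ALK7 (background 1.98%), 0 in ALK7-DN (0.966%), 2 in sh2 (9.99%) and 3 in sh1/2 (38%). In ALK7-DN, edgeR gave 1 member at an unadjusted p under 0.05, Smad9 (-0.17 ± 0.07), and DESeq2 called 0. The untreated sh2 libraries are all of batch 2 and the control libraries of batch 1; a batch term, which assumes that sh2 and sh1/2 respond alike to activin B, gave -0.13 (adjusted p = 0.153) for Smad2 and 0.26 (0.0688) for Smad9 in sh2. Smad3 in sh2 (-0.23 ± 0.09, adjusted p = 0.108) passed in 4 of 16 alternatives: with the batch term (-0.40, 0.0300), with GC offsets (-0.25, 0.0468), with these and the replicate block (-0.25, 0.0319) and without the 3 libraries named above (-0.23, 0.0489). The Smad9 call in sh1/2 ended with the groups compared alone in the fit (-0.28, adjusted p = 0.105), and without sh1/2 DOX replicate 2 Smad5 (0.25, 0.00147) and Smad4 (0.11, 0.0238) also passed.

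With activin B present, sh2 and control share a batch, and both Smad2 and Smad9 were lower in sh2 there too. Smad2 stood at 92.8, 95 and 93.3 CPM in sh2 against 112, 112 and 109 in control (log2 fold change -0.24 ± 0.05, adjusted p = 0.000781), and Smad9 at 28.01, 29.2 and 30.2 against 41.6, 42.4 and 38.8 CPM (-0.49 ± 0.07, 2.75e-05). In sh1/2, 5 of the 6 genes differed from control, all but Smad4. Smad9 was lower by -1.03 ± 0.07 (adjusted p = 3.45e-11) and Smad2 by -0.57 ± 0.05 (6.72e-10), at 80.0, 70.6 and 73.4 CPM. Smad3 was higher by 0.46 ± 0.09 (adjusted p = 0.000222), with libraries at 8.10 to 8.84 against 5.48 to 6.80 CPM, and Smad1 by 0.24 ± 0.05 (0.00146). Smad5 was lower by -0.18 ± 0.07 (adjusted p = 0.0390). None of the 6 was called in ALK7 or in ALK7-DN by edgeR or DESeq2. At an unadjusted edgeR p under 0.05, 3 members stood in ALK7, Smad9 (-0.19 ± 0.07), Smad1 (0.11 ± 0.05) and Smad2 (-0.10 ± 0.05), and 1 in ALK7-DN, Smad3 (0.31 ± 0.09, adjusted p = 0.0796). The background was 4.53% in ALK7, 1.65% in ALK7-DN, 9.23% in sh2 and 35.2% in sh1/2. The Smad5 call in sh1/2 ended with GC offsets (-0.06, adjusted p = 0.206), without the 3 libraries named above (-0.13, 0.0678), with no filter (0.0830), with the groups compared alone in the fit (0.0978), with limma on the deposited log2 table (0.0531) and without control activin B replicate 2 (0.217) or any treated sh1/2 replicate (0.0569 to 0.136). The Smad2 call in sh2 ended with the groups compared alone in the fit (-0.25, adjusted p = 0.0599), and Smad3 in ALK7-DN passed without control activin B replicate 1 (0.39, 0.0454).

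**Figure D5:**
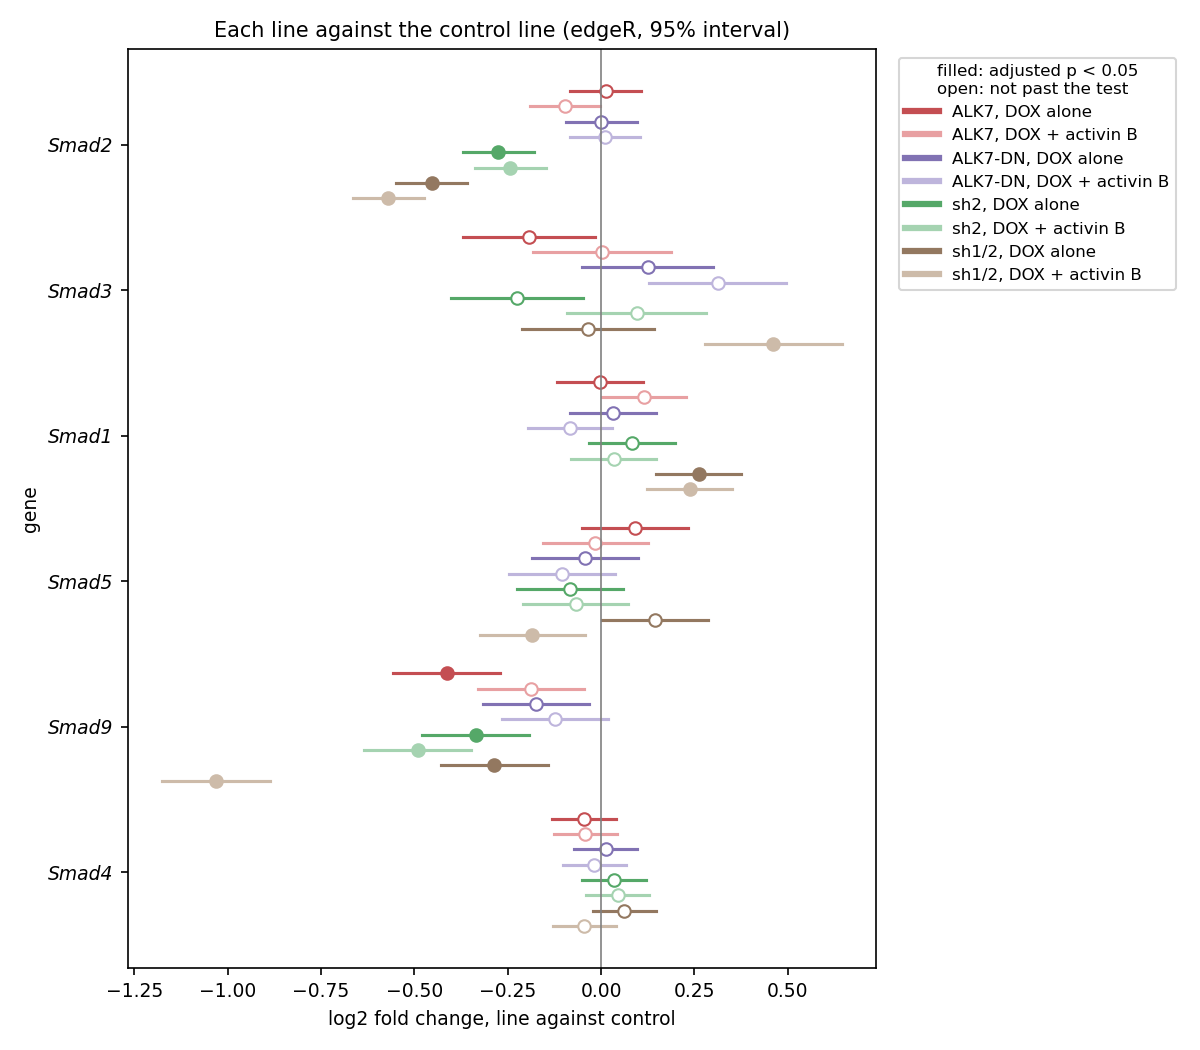
Each line against the control line as log2 fold change (horizontal axis) for each gene (vertical axis), with darker colours for DOX alone and lighter ones for DOX with activin B. Points are edgeR estimates, lines 95% intervals, and filled points passed the test. Smad2 lies left of 0 in both hairpin lines in both arms (-0.57 to -0.24), and Smad4 has no filled point.

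Both hairpin lines thus stood apart from control in Smad2 and Smad9 in both arms, beside their lower Acvr1c. The sh2 calls under DOX alone ended with a batch term. Lower Smad9 was not particular to these lines. Under DOX alone it was also lower in ALK7 (-0.41), where Acvr1c averaged 154 CPM against 165 in control. The ALK7 construct was not visible in these counts, so that they do not give the receptor level of that line. With activin B, Acvr1c averaged 42.7 CPM in sh2 and 26.7 in sh1/2, against 101 CPM in control. Acvr1c itself fell with activin B in all 5 lines, by 0.71 ± 0.10 on the log2 scale in control (adjusted p = 1.14e-05) and by 1.05 ± 0.11 in sh1/2 (7.27e-08). The part of the receptor level, the hairpins or the backbone in the SMAD levels was not tested.

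The genes around the SMADs in the pathway were counted by list. Of the activin and TGF-β receptors, 0 of 6 tested rose and 1 fell in control cells, namely Acvr1c, and in sh1/2 2 rose and 4 fell. Of the 5 BMP receptors tested, 4 rose in control and 1 in sh1/2. Bmpr1a, a type I receptor that acts on the BMP-branch SMADs, rose by 0.35 in control (157 to 199 CPM, adjusted p = 0.00210) and had -0.11 in sh1/2 (0.276). Acvrl1, another such receptor, was near the floor of detection, at 0.668 and 1.55 CPM in control. Among inhibitory SMADs and receptor-level inhibitors, 4 of 7 rose and 0 fell in control, with a median log2 fold change of 1.76, and 4 rose and 1 fell in sh1/2. Smad7, the inhibitory SMAD that blocks type I receptors, rose by 2.30 in control and by 1.71 in sh1/2 (adjusted p = 2.83e-13 and 6.03e-11), in the same cells in which Smad3 fell. Of the corepressors, which sit on SMAD complexes at DNA, 4 of 10 rose in control and 4 in sh1/2. They included Skil (1.84 and 1.13) and Tgif1 (1.27 and 0.49). Zfyve9, which encodes the anchor SARA that presents SMAD2 and SMAD3 to the receptor, was the 1 of 13 anchors and transport factors that fell in control, by 0.55 (81.1 to 55.6 CPM, adjusted p = 5.94e-06), and it fell by 0.93 in sh1/2 (1.26e-09). The background is the 20.3% of all genes called in control and the 36.6% in sh1/2. Untreated sh1/2 includes the libraries low on GC-rich genes, and its values were spread. Bmpr1a averaged 202 ± 31.3 CPM (SD) there, against 155 to 165 CPM in the other untreated groups, and Zfyve9 99.3 ± 13.7 CPM. The list counts and values of sh1/2, here and in the next paragraph, were not recomputed with GC offsets or without these libraries.

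Factors that modify SMAD proteins were counted in the same way, beside the same 20.3% of all genes called in control and 36.6% in sh1/2. Of 15 ubiquitin ligases and deubiquitinases 1 rose in control, Smurf1 (0.20, adjusted p = 0.0219), a ligase that marks BMP-branch SMADs and receptors for degradation. Of 13 phosphatases and linker kinases 2 fell, Ctdspl (-0.30, 0.00240) and Cdk8 (-0.16, 0.0473). Coactivators and DNA-binding partners rose in 4 of 16 cases, among them Tead1 (0.74, adjusted p = 4.00e-07) and Foxo3 (0.28, 0.00169). Known targets of SMAD2 and SMAD3 rose in 11 of 16 cases in control, with a median of 1.51. In sh1/2, 11 rose and 1 fell, with a median of 1.09. Smad3 had fallen in the same libraries. This list shares Smad7, Bambi, Pmepa1, Ldlrad4, Fstl3, Skil, Tgif1 and Jun with the lists above, so that its counts are not separate from theirs. Bmf, which encodes a pro-apoptotic protein, rose by 3.23 in control and by 1.70 in sh1/2 (adjusted p = 2.61e-14 and 2.98e-09). Targets of the BMP branch went both ways in control, 4 of 11 up and 4 down. Id3, which blocks helix-loop-helix factors, fell by 1.74 (adjusted p = 4.70e-07) while Smad7 and Bambi, which the activin branch also induces, rose. Smad9 belongs to this last list as well as to the 6 genes.

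For each SMAD gene the transcripts with the most similar course over the 10 group means were listed among 9266 genes, as a description without a test, since the means share libraries. Smad3 ran closest to Pdia6, a protein disulfide isomerase of the endoplasmic reticulum (Pearson r = 0.98), Snx18 (0.98) and Magi1 (0.98). Smad5 ran closest to the integrin subunit Itgav (0.98), Srgap2 (0.98) and Eml5 (0.98), and Smad2 to Chmp5, a subunit of the ESCRT-III membrane machinery (0.98), Pole3 (0.98) and Pla2g2d (0.98). Smad1 was followed by Tpm1 (0.97), Clcn2 (0.97) and Fmnl3 (0.97), and Smad4 by Kif21a (0.95), Spire1 (0.94) and Zscan12 (0.93). Smad9 was nearest to Phf20 (0.93), the RNA sensor gene Ddx58 (0.93) and Hps3 (0.93). The spans differed: Smad3 ranged over 1.27 and Snx18 over 0.80 on the log2 scale, and Smad9 over 1.06 and Phf20 over 0.47.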

How the data were processed

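Poly(A) RNA was sequenced from 30 libraries in 10 groups of 3. The authors deposited integer read counts per gene; per the submitters' processing notes they used bcl2fastq 2.17, cutadapt 1.4.2, HISAT2, mm10 and featureCounts 1.4.4. Not given in the sources used here were the HISAT2 version, gene annotation, strand setting and treatment of multi-mapped reads. The authors also deposited log2 CPM values, made with edgeR per the same notes and used here only for an alternative with limma. Counts in all 30 columns of the series table equalled those in the sample files.

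The counts were tested with edgeR 4.0.16 (R 4.3.3): filterByExpr, TMM scaling, 1 model of the 10 group means over all 30 libraries, and quasi-likelihood F tests of 17 contrasts, Benjamini-Hochberg adjusted over 15627 genes with a threshold of 0.05. Unless another tool is named, adjusted p-values come from this test. Levels are TMM-scaled CPM, divided by kilobases of merged exons where stated. Replicates differed by more than counting noise (lowest chi-square per degree of freedom 8.25). Intervals are 95%.

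The members, the 10 lists (127 genes) and the tests were chosen with earlier results of these data known. By rule, all 6 members are named in each comparison, with up to 3 called genes per list (smallest p in control) and, for likeness, the 3 genes with the highest r of log2 CPM (prior count 2) among genes averaging 10 CPM or more. GC content and positions are from GENCODE M21, whose IDs matched 37607 of 39017 genes. The function was tested on simulated counts. Alternatives were DESeq2 1.42.0, RLE factors, no filter, only the groups compared, a replicate block, lowess GC offsets (span 0.3), 3 libraries left out, a batch term, limma 3.58.1 and each library left out. Replicate numbers in the labels were checked as pairs: same-numbered libraries deviated together with r from 0.109 to 0.209 in ALK7, 0.102 to 0.329 in ALK7-DN and 0.130 to 0.325 in sh1/2, every pair above 0.1, so that numbers were taken to pair libraries in these lines, from the data alone. The reported tests are nevertheless unpaired in every line, and pairing enters only through the alternatives with a replicate block.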

Additional observations from a re-analysis of the deposited data

Results flagged for a closer look

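The response of 3 genes to activin B differed between sh1/2 and control cells by the test of the interaction itself. Smad9 differed by -0.75 (log2 scale, adjusted p = 0.000128, edgeR quasi-likelihood test), with treated below untreated libraries in sh1/2 and overlapping libraries in control. Smad3 differed by 0.50 (adjusted p = 0.0199), with treated libraries lower in both lines. Smad5 differed by -0.33 (adjusted p = 0.0347), with treated libraries higher in control and overlapping in sh1/2. It was called in 10 of 22 alternatives and was -0.07 with GC offsets (adjusted p = 0.501). Without the 3 libraries low on GC-rich genes, with untreated sh1/2 replicate 2 alone, it was -0.05. The Smad3 difference was called in 17 of 22. The batch term, 1 of the 22, leaves these differences unchanged by construction.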

How the results depend on the processing

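Of 1776 values of the 6 genes recomputed under alternatives, 51 lost a call, 33 gained one and 2 turned their direction, and the rest kept their call, though some uncalled values changed sign. Both of those came from the batch term in sh2, which by construction gives sh2 the response of sh1/2: the Smad5 interaction of sh2 became -0.33 (adjusted p = 0.0347) and Smad9 in sh2 against control under DOX alone became 0.26 (0.0688). The same term gave Smad9 a value of 0.61 in ALK7-DN (0.000824), which by construction includes the difference between the sh2 and sh1/2 responses. Comparisons among batch 1 groups alone cannot change under this term, so that its values there, counted among the 1776, are no separate check. The number of the 6 genes called for activin B in sh2 was 4 with GC offsets and a replicate block and 5 without the 3 libraries low on GC-rich genes. For the interaction of ALK7 it was 1 with GC offsets and a replicate block (Smad9, 0.33, adjusted p = 0.0333), and for that of sh2 it was 3 with the batch term. For the interaction of sh1/2 it was 1 with only the groups compared, 1 with GC offsets and 1 without the 3 libraries, and between 1 (without control DOX replicate 1 or control activin B replicate 2) and 5 (without sh1/2 DOX replicate 2) with single libraries left out. For sh2 against control it was 1 with the batch term under DOX alone and 1 with only the groups compared under activin B. With single libraries left out it ran from 3 to 5 for sh1/2 against control under DOX alone (5 without sh1/2 DOX replicate 2) and from 0 to 1 for ALK7-DN against control with activin B (1 without control activin B replicate 1). Apart from what the batch term sets by construction, the cause of these changes was not tested. The replicate block by itself added 2 calls, Smad1 for activin B in sh2 (0.14, adjusted p = 0.0423) and Smad5 in sh1/2 against control under DOX alone (0.14, 0.0472), and changed no other. In control and sh2, where not every pair deviated together (lowest r 0.0790 and 0.0930), all 6 libraries of each line still correlated best with their own number, which is a hint from the data and not from the design. Smad3, at 128 to 528 reads per library, has the widest standard errors of the 6 genes, up to 0.09 in responses.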

Other observations

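Over the 10 group means, the course of Smad3 was opposite to that of Smad5 (Pearson r = -0.90) and that of Smad2 ran with Smad9 (0.73), while Smad3 and Smad2, of the same branch, had r = -0.14. These correlations describe 10 points that share lines and libraries, and no test was made.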
